A study of Mus musculus with 16 samples.

Results

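Tbx21 and Eomes encode the T-box transcription factors T-bet and eomesodermin, and their chromatin was followed here through every deposited peak that overlapped either gene body extended by 60 kb on each side. They are 2 of the 26180 genes with a curated RefSeq transcript on mm10, and their windows held 109 peaks, 67 around Tbx21 and 42 around Eomes. The cells were CD8+ T cells from the spleens of OT1 mice, which are transgenic for a T cell receptor that recognises ovalbumin. They were stimulated for 48 h with plate-bound anti-CD3 at 2 μg/ml, soluble anti-CD28 at 2 μg/ml and IL-2 at 20 ng/ml, and were then expanded with IL-2 for 3 days. GSK2879552 (GSK), which inactivates the demethylase LSD1 irreversibly, was present at 0.5 μM throughout activation and expansion, and vehicle (Veh) took its place in the control cells. ChIP-seq targeted RNA polymerase II (Pol II), LSD1, H3K27ac and mono-, di- and trimethylated H3K4 (H3K4me1, H3K4me2 and H3K4me3), with 1 library per antibody and treatment, which gave 12 peak lists among 16 samples. The 4 input samples were not analysed here. OT1 mice are on the C57BL/6 background, their age is not given in the sources used here, and cultured spleen cells of a single receptor specificity stand for CD8+ T cells in general only with that limit. With 1 library per group there is no spread between replicates and no test, and a difference between Veh and GSK is a difference between 2 peak lists.

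T-bet and eomesodermin bind DNA through the same kind of domain and share part of their targets. In CD8+ T cells T-bet is known for driving cytotoxic and interferon-gamma gene expression early after activation, whereas eomesodermin rises later and is tied to memory and to the response to IL-2 family cytokines. The substrates of LSD1 are H3K4me1 and H3K4me2, marks that are common at enhancers, while H3K4me3 and Pol II mark promoters and H3K27ac marks active elements of both kinds.

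Promoter H3K4me3 matched the labelled cell type. All 4 CD8 T cell markers examined (Cd8a, Cd8b1, Cd3e and Cd3g) had an H3K4me3 peak within 1 kb of a transcription start site (TSS) in both treatments. None of the 5 markers of B cells, myeloid cells or CD4 T cells examined (Cd79a, Ms4a1, Csf1r, Lyz2 and Cd4) had one in either. The lists differed in length between treatments most for H3K27ac, with 7410 Veh and 2751 GSK peaks, and for H3K4me2, with 15219 and 9437. LSD1 (21252 and 19919), H3K4me1 (34387 and 40272), H3K4me3 (15779 and 16887) and Pol II (15638 and 15401) were closer. A peak missing from a shorter list was below that list's cutoff, which is not the same as a loss of the mark.

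Tbx21 lies on the minus strand of chromosome 11 from 97098007 to 97115331, with its TSS at 97115331 and 6 exons. Eomes lies on the plus strand of chromosome 9 from 118478189 to 118486132, with its TSS at 118478189 and likewise 6 exons. The 250 bases before each TSS are shown because both promoters carried LSD1 and H3K4me3 in both treatments but differed in Pol II. They are from RefSeq, build GRCm38.p6, on the strand of the gene (chr11:97115332-97115581, minus, and chr9:118477939-118478188, plus), with a motif match in capitals.
Tbx21 promoter: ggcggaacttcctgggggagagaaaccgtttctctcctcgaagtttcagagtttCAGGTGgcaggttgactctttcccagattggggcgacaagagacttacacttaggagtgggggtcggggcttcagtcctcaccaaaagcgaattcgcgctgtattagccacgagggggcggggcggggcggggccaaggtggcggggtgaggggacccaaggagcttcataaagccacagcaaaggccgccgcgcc
Eomes promoter: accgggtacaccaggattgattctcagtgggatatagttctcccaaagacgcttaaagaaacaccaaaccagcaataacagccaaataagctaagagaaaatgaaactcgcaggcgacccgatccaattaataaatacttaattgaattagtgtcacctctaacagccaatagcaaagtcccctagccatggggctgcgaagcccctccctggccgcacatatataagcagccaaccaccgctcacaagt

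The capitals in the Tbx21 promoter mark the E-box CAGGTG. The other motifs searched, on both strands, were T-box TCACACC, RUNX TGTGGT, AP-1 TGACTCA, TCF CTTTGAT, STAT TTCNNNGAA, GFI1 AAATCAC and ETS CCGGAAGT. The letters TCAC are shared by the T-box and GFI1 motifs, so that matches to both could overlap. Of all 32817 promoter windows of this length, 17.2% held the E-box, and the share that held each of the others ran from 2.75% (GFI1) to 14% (RUNX). No match to any of the 8 motifs was found in the Eomes window. The Tbx21 window was 60.8% GC with 16 CpG dinucleotides, and the Eomes window was 46.4% GC with 8, against medians of 52.4% and 6 over all promoters. The Eomes window was therefore the less GC-rich of the pair and lay below the median in GC but above it in CpG.

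Sequences at LSD1 sites away from curated promoters are given next, because LSD1 was kept at those of Tbx21 and partly not at those of Eomes. Each window spans 100 bases on either side of the LSD1 summit, plus strand, GRCm38.p6, with motif matches in capitals. Around Tbx21 they are the site 8.20 kb upstream of the TSS (chr11:97123426-97123626), called in both treatments, a site 11.7 kb upstream called in GSK cells only (chr11:97126928-97127128), and a site 28.3 kb upstream, in an intron of Tbkbp1 and called in both (chr11:97143531-97143731). Around Eomes they are the site 27.4 kb upstream called in Veh cells only (chr9:118450639-118450839), a site 21.1 kb upstream called in GSK cells only (chr9:118456961-118457161), and a site 10.0 kb downstream of the TSS called in both, centred on its Veh summit (chr9:118488112-118488312) and on its GSK summit (chr9:118488407-118488607).
Tbx21, 8.20 kb upstream, both: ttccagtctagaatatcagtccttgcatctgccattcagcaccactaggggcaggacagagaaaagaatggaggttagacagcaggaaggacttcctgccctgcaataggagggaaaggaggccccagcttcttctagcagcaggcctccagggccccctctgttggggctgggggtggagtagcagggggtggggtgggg
Tbx21, 11.7 kb upstream, GSK only: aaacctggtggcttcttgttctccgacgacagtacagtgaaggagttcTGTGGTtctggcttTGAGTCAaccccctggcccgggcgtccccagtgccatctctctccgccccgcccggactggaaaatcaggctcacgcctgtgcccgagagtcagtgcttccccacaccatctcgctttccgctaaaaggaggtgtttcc
Tbx21, 28.3 kb upstream, both, Veh summit: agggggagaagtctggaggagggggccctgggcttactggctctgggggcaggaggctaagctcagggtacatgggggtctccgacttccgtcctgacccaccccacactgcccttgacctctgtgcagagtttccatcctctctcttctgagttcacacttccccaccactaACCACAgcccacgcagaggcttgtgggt
Eomes, 27.4 kb upstream, Veh only: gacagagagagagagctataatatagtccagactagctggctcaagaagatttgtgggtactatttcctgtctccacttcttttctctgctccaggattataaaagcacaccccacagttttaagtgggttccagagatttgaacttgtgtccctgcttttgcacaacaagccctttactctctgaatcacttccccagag
Eomes, 21.1 kb upstream, GSK only: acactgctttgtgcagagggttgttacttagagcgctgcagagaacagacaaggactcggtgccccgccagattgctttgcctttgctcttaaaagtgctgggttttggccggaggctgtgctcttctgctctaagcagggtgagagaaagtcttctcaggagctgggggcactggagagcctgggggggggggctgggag
Eomes, 10.0 kb downstream, both, Veh summit: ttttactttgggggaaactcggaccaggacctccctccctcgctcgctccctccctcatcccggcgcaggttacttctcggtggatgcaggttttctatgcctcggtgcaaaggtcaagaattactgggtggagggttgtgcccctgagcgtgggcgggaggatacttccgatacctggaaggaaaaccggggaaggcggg
Eomes, 10.0 kb downstream, both, GSK summit: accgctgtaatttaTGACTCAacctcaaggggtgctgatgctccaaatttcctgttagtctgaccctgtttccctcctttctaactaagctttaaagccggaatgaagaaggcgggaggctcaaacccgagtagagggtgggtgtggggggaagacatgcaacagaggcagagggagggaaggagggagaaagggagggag

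The GSK-only site of Tbx21 held a RUNX match (TGTGGT) and, on the minus strand, an AP-1 match (TGAGTCA as printed). The site 28.3 kb upstream of Tbx21 held RUNX on the minus strand (ACCACA as printed) in the Veh summit window shown and no match in that of its GSK summit, and the site 26.9 kb upstream, not printed, held RUNX in both. Over all LSD1 summits away from TSSs, RUNX was found in 32.1% of the Veh windows and 25.7% of the GSK windows, and AP-1 in 10.2% and 7.65%. No match was found at the strongest Tbx21 site, 8.20 kb upstream, nor at the Eomes sites called in a single treatment (the 2 printed and the site 11.1 kb downstream of the TSS). The shared Eomes site had an AP-1 match in the window of its GSK summit and none in that of its Veh summit. The T-box motif TCACACC, present in 5.04% of the Veh and 4.70% of the GSK windows, was not found in any of the distal LSD1 windows around Tbx21 or Eomes.

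**Figure D1:**
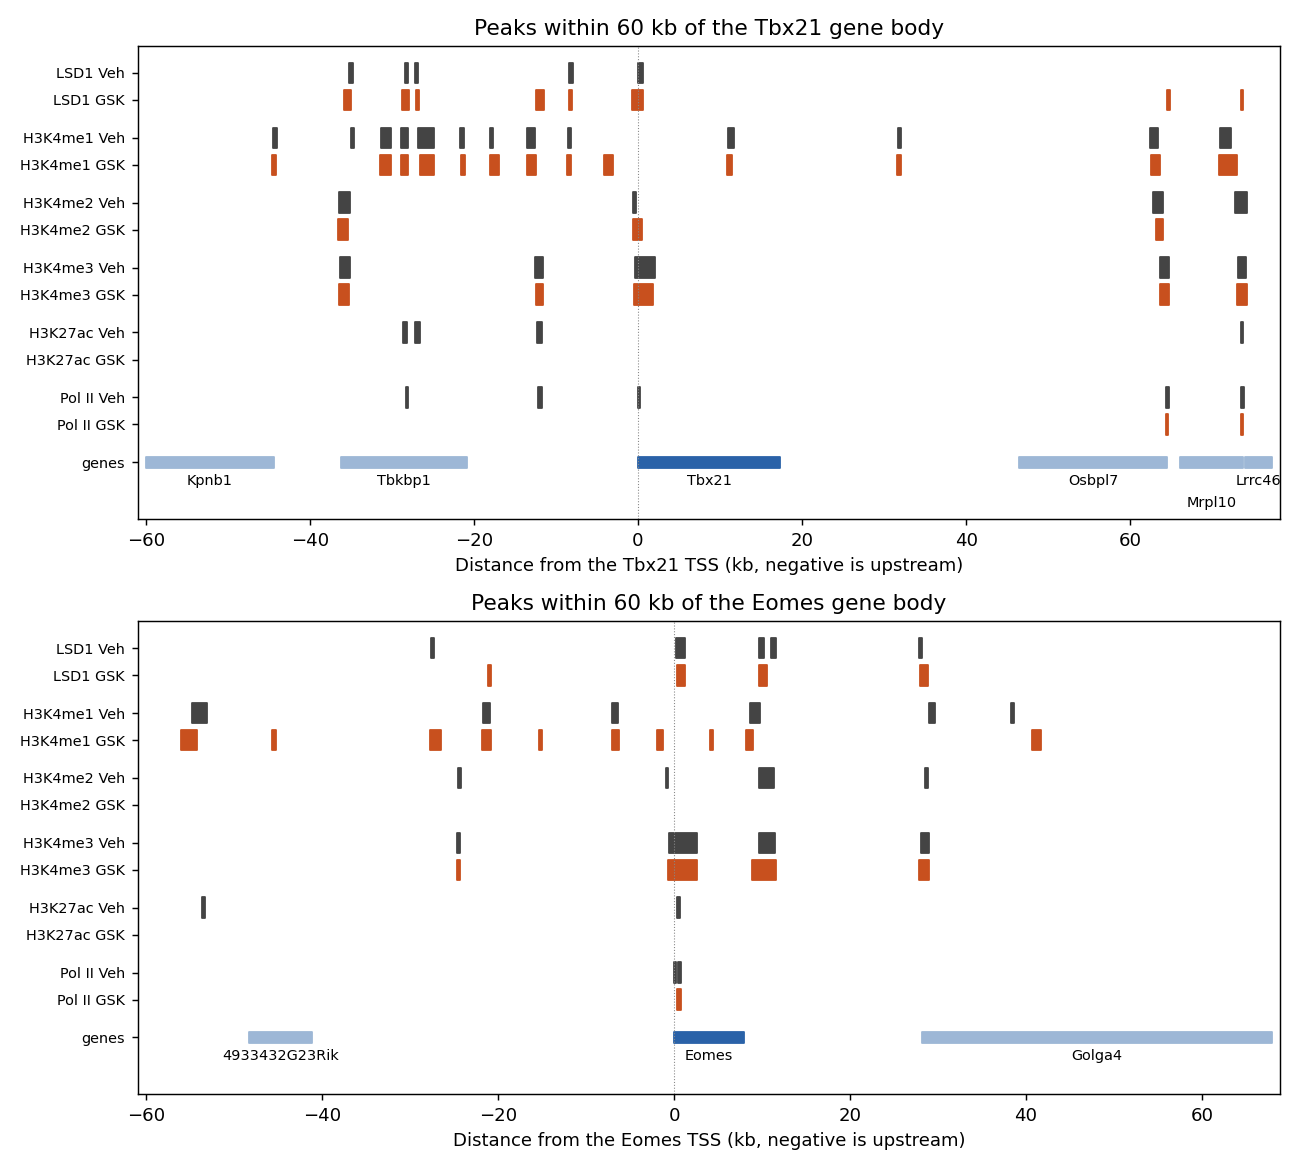
Peaks of each antibody and treatment by distance from the TSS in kb along the direction of the gene, for Tbx21 (upper panel) and Eomes (lower panel), with Veh in dark grey and GSK in orange, curated genes in blue, and peaks under 0.3 kb drawn 0.3 kb wide. H3K27ac bars appear for Veh alone (4 around Tbx21, 2 around Eomes), H3K4me2 bars around Eomes likewise (4), and the Eomes window has more H3K4me1 bars in GSK (10) than in Veh (6).

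At the Tbx21 promoter (TSS within 1 kb) the Pol II peak of Veh cells was not found in GSK cells, while the LSD1 peak was stronger in GSK cells. Fold enrichment, the authors' ratio of ChIP signal at the peak over the background around it, was 4.70 for LSD1 in Veh cells and 7.11 in GSK cells. The −log10 p was 10.8 in Veh and 20.4 in GSK cells, and the peak was 638 and 1352 bp long. This LSD1 peak went from the 64.7 to the 92.1 percentile of fold in its list and, by −log10 p, from the 79.4 to the 95.7 percentile. A fold at least 1.5 times higher in GSK cells, as at Tbx21 (1.51 times), was seen at 12.4% of the 9714 promoters with LSD1 in both treatments. LSD1 in both treatments was itself found at 30.7% of all promoters.

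The Veh Pol II peak at the Tbx21 TSS was enriched 5.27 times with −log10 p of 9.90, at the 74.1 percentile of its list by −log10 p. No GSK Pol II peak was listed within 1 kb of the TSS, and the nearest lay 64186 bp from the Veh peak. For Pol II the study states more reads in the GSK than in the Veh library, and the part of depth was not tested. Pol II in Veh cells only was found at 7.08% of all promoters, most of which had no Pol II peak in either list. Among promoters with a Veh Pol II peak, 2239 had it in Veh cells only and 6689 in both treatments. Among the 4776 promoters with a Veh Pol II peak at least as significant as that of Tbx21, 8.65% had no GSK Pol II peak. Tbx21 is at the lower bound of that set, so this share is mainly that of more significant peaks.

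H3K4me3 and H3K4me2 were called at the Tbx21 promoter in both treatments, H3K4me2 at a lower rank in GSK cells. H3K4me3 was enriched 3.71 times in Veh and 3.99 times in GSK cells over 2437 and 2215 bp, as 1 of the 49.1% of promoters with H3K4me3 in both. H3K4me2 was called in each treatment, as at 25.4% of promoters, at folds of 5.32 (Veh) and 4.09 (GSK). Its −log10 p was 18.5 (Veh) and 8.81 (GSK), at the 98.4 and 57.7 percentiles, and its percentile of fold went from 75.5 to 10.0. The H3K4me2 peak was 390 bp long in Veh cells and 1028 bp in GSK cells. The GSK H3K4me2 list was also the shorter, so the percentiles of the 2 lists are not on the same scale. No H3K27ac or H3K4me1 peak lay within 1 kb of the Tbx21 TSS in either treatment. The single H3K4me1 peak inside the Tbx21 gene lay in an intron 11.3 kb downstream of the TSS and was shared (Veh fold 3.51, GSK fold 3.75).

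At the Eomes promoter LSD1, H3K4me3 and Pol II were called in both treatments at nearly equal fold. For Pol II this holds for the strongest peak of each list, and those peaks do not overlap. LSD1 was enriched 5.37 times in Veh cells (the 78.3 percentile of fold) and 5.16 times in GSK cells (the 68.0 percentile). The H3K4me3 fold was 2.77 in each over 3231 and 3257 bp, a low but very wide peak whose width stood at the 99.4 percentile of the Veh list. In each treatment it covered the TSS and ran into the gene.

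Pol II in both treatments was found at 21.2% of promoters, Eomes among them. Veh cells had 2 Pol II peaks there, with folds of 3.38 at the TSS and 2.92 at 0.488 kb downstream. The only GSK peak, with a fold of 3.23 and its summit 0.683 kb downstream, overlapped the second and lay 96 bp from the first. Pol II was thus listed at the Eomes TSS itself in Veh cells only, and further into the first part of the gene in both. The −log10 p of these Pol II peaks was 5.46 and 4.19 in Veh cells and 5.79 in GSK cells, with −log10 q from 1.21 to 2.40. A change in Pol II position was not tested.

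H3K27ac and H3K4me2 at the Eomes promoter were listed in Veh cells only, as were 12.1% and 12.8% of promoters. These shares include promoters without a peak in either list. Counted by gene, H3K27ac was in Veh cells only at 3208 and in both treatments at 2159, so Veh only was the more frequent. For H3K4me2 the counts were 3351 and 6867. Significance of the H3K27ac peak (−log10 p 6.36) was under the minimum of the GSK list (6.47), so that a peak of equal significance could not have appeared there. The H3K4me2 peak, 278 bp long with its centre 0.819 kb upstream, was enriched 3.06 times at −log10 p of 6.01, near the lowest of the GSK list, 5.76. Both were weak members of their own lists, at the 2.08 (H3K27ac) and 3.54 (H3K4me2) percentiles by −log10 p. Gm33408, an antisense noncoding RefSeq model that is predicted and not curated, starts within 1 kb of the Eomes TSS and reaches past the sites 21.1 and 27.4 kb upstream, and signal from its promoter cannot be told apart from that of Eomes.

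**Figure D2:**
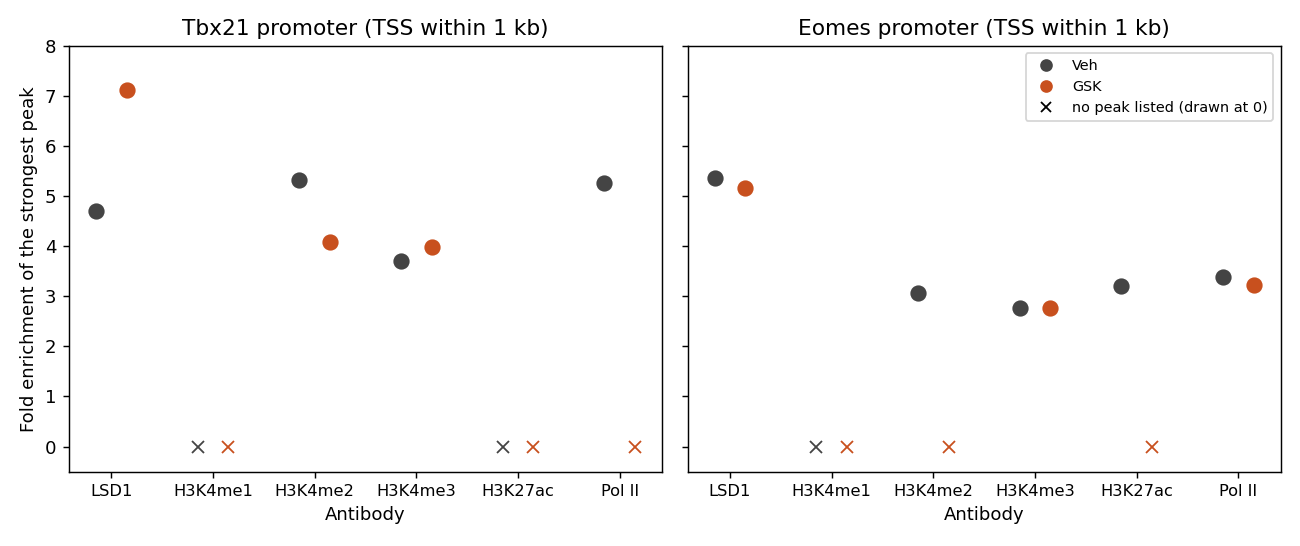
Fold enrichment of the strongest peak within 1 kb of the TSS by antibody, for Tbx21 (left) and Eomes (right), with Veh in grey and GSK in orange and crosses at 0 where no peak is listed. Tbx21 shows the LSD1 pair at 4.70 and 7.11 and a Pol II point in Veh alone at 5.27, while the LSD1, H3K4me3 and Pol II pairs of Eomes lie close together. The Veh and GSK peaks behind the Eomes Pol II pair do not overlap.

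Every Veh LSD1 peak around Tbx21 was found again in GSK cells, and around Eomes some were not. All 5 Veh LSD1 peaks of the Tbx21 window had an overlapping GSK peak (Wilson 95% interval 56.6% to 100%, for counting error only, as for all intervals given). Around Eomes 3 of 5 did (60%, interval 23.1% to 88.2%). Over the whole list 45.4% of Veh LSD1 peaks had no GSK peak, and away from TSSs 65.1%, so the Eomes share was close to the list, and the intervals of both genes overlap. The retained peaks at neighbouring genes were those of the Tbkbp1 promoter (Veh 3.53, GSK 3.90) and the Golga4 promoter (Veh 5.08, GSK 4.57). Away from curated TSSs, 3 of 3 sites were retained around Tbx21 (interval 43.9% to 100%) and 1 of 3 around Eomes (interval 6.15% to 79.2%). The Eomes sites 10.0 kb (retained) and 11.1 kb (not retained) downstream overlap the same H3K4me3 peak. That peak lies at the start of the noncoding gene Gm33460, so these sites are neither separate elements nor clear of every promoter.

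The strongest LSD1 site in either window was the intergenic one 8.20 kb upstream of Tbx21, from 97123239 to 97123779. Its fold was 10.4 in Veh cells, at the 98.6 percentile of the list, and 7.99 in GSK cells, at the 95.8 percentile, with −log10 p of 45.2 and 30.2. The GSK fold was 0.766 times the Veh fold, and the site ranked near the top of both lists. H3K4me1 overlapped it in both treatments at folds of 2.97 and 2.82, with no H3K4me2, H3K4me3, H3K27ac or Pol II.

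The 2 sites in Tbkbp1 introns, 26.9 and 28.3 kb upstream of Tbx21, were weaker and retained. Tbkbp1 encodes an adaptor of the kinase TBK1. Their LSD1 fold was 3.60 at each in Veh cells, and 3.50 and 4.07 in GSK cells. The second overlapped H3K4me1 in both treatments and the first lay at the edge of an H3K4me1 peak, and both overlapped H3K27ac in Veh cells only, with H3K27ac folds of 3.27 and 2.57. A Veh-only Pol II peak with a fold of 3.27 overlapped the second.

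In GSK cells 3 LSD1 peaks of the Tbx21 window had no Veh counterpart, against 42.2% of GSK LSD1 peaks in the whole list. They lay at the shared Lrrc46 and Mrpl10 promoter (fold 6.98), at the Osbpl7 promoter (3.05) and at the element 11.7 kb upstream of Tbx21 (3.35). Mrpl10 encodes a mitochondrial ribosomal protein and Osbpl7 an oxysterol-binding protein. With them and with wider shared peaks, at the Tbx21 promoter among others, the LSD1-covered length of the Tbx21 window went from 2469 to 5319 bp, 2.15 times, where the whole list changed 1.01 times.

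Around Eomes the LSD1 peak 27.4 kb upstream (118450572 to 118450857, fold 4.35) and that 11.1 kb downstream of the TSS (fold 3.74) were listed in Veh cells only. A peak 21.1 kb upstream (fold 3.96) was listed in GSK cells only, 6134 bp from the Veh peak at 27.4 kb. The retained distal site, 10.0 kb downstream, was enriched 3.32 times in Veh cells and 3.88 times in GSK cells. The Veh peak at 11.1 kb lay 413 bp from this GSK peak, which was 937 bp long against 576 bp in Veh cells. Every distal Eomes site was weaker than the Tbx21 site at 8.20 kb, with −log10 p between 4.92 and 6.42 over both treatments.

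**Figure D3:**
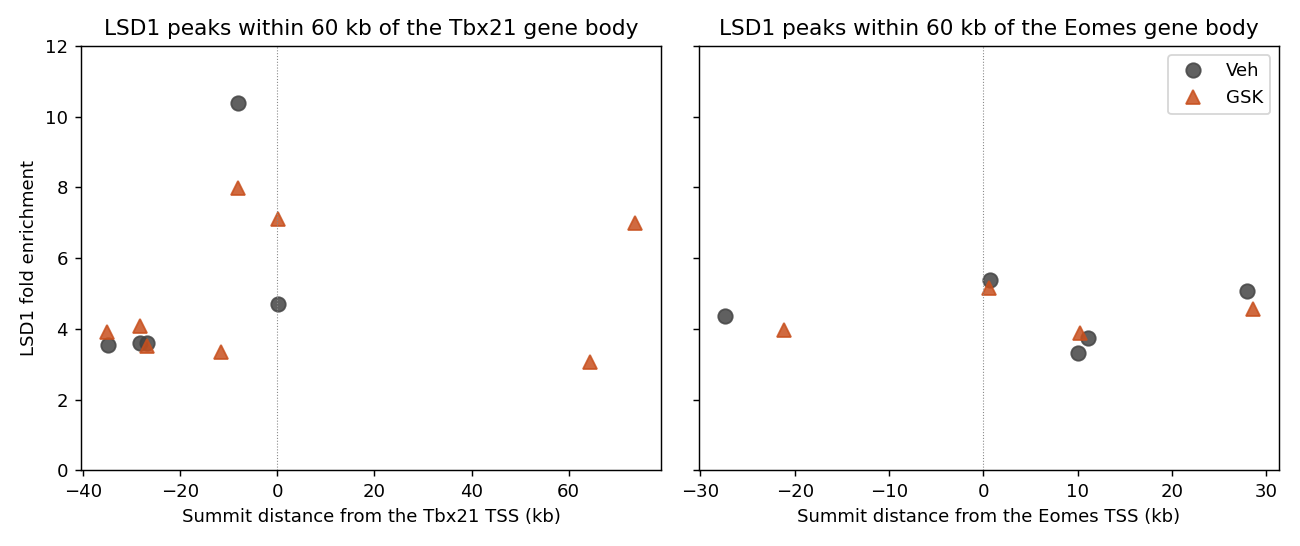
LSD1 fold enrichment by summit distance from the TSS in kb, for Tbx21 (left) and Eomes (right), with Veh as grey circles and GSK as orange triangles. Circles and triangles pair up at each of the 5 Veh sites of Tbx21, the highest pair at 10.4 and 7.99, and Eomes has unpaired points at 27.4 kb (Veh) and 21.1 kb (GSK) upstream and at 11.1 kb (Veh) downstream.

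H3K4me1 peaks around Tbx21 were nearly the same set in both treatments, while around Eomes more were listed in GSK cells. Tbx21 had 13 H3K4me1 peaks in each treatment, 12 of them shared, with 1 peak in each treatment alone. In the whole lists 12.2% of Veh H3K4me1 peaks had no GSK peak and 24.8% of GSK peaks had no Veh peak. Eomes had 6 in Veh cells and 10 in GSK cells, with 4 shared, 2 in Veh cells only and 6 in GSK cells only. The covered length rose from 5157 to 8571 bp around Eomes, 1.66 times, and from 10663 to 13263 bp around Tbx21, 1.24 times, where the whole list changed 1.21 times. The order of the genes was not stable: with lists of equal length the ratios were 1.31 (Eomes) and 1.20 (Tbx21), with 100 kb on each side 1.43 and 1.41, and under a stricter threshold of −log10 q of at least 5 they were 1.17 and 1.29. The 12 shared peaks lay in Tbx21 itself, in Mrpl10, Osbpl7 and Tbkbp1, at Mir7235 and at the end of Kpnb1, which encodes a nuclear import receptor, and between genes. Their Veh folds ran from 1.81 to 5.36 and their GSK folds from 1.75 to 5.41, and the GSK-only peak, 3.60 kb upstream of the TSS, had a fold of 2.35. No peak of any antibody lay at the TSS of Mir8103.

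Enhancers were defined after the study's scheme as merged H3K4me1 and H3K4me2 peaks more than 2.5 kb from any TSS and free of H3K4me3, which gave 26676. H3K4me1 was found in GSK cells only at 22.5% of them and in Veh cells only at 9.87%. Of the 9 enhancers that touched the Eomes window, 5 had H3K4me1 in GSK cells only, 1 in Veh cells only and 3 in both. Of the 8 around Tbx21, 1 had it in GSK cells only and 7 in both.

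The Eomes enhancers with H3K4me1 in GSK cells only lay 45.5 kb upstream of the TSS in an intron of the noncoding gene 4933432G23Rik, 27.2 and 15.2 kb upstream, 4.23 kb downstream in an intron of Eomes, and 41.2 kb downstream in an intron of Golga4, which encodes a golgin of the trans-Golgi network. Their H3K4me1 folds were 3.63, 3.38, 3.95, 2.64 and 3.14. The enhancer at 27.2 kb is the one with LSD1 in Veh cells only, and the other 4 had no LSD1 peak in either treatment. The enhancer 21.4 kb upstream, where LSD1 was listed in GSK cells only, carried H3K4me1 in each treatment (Veh 4.41, GSK 4.86).

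All 6 GSK-only H3K4me1 peaks of the Eomes window were of low significance, with −log10 p from 5.25 to 6.64, at the 1.09 to 23.3 percentiles of the GSK list. The sixth, 1.59 kb upstream of the TSS, was too near it to count as an enhancer. Under the stricter threshold no Eomes enhancer was in GSK cells only, and with lists of equal length the net number fell from 4 to 1. The peaks shared between treatments reached −log10 p of 16.2. The study states more reads for the GSK than for the Veh H3K4me1 library, and the part of depth in these peaks was not tested.

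Over the 12997 genes with H3K4me3 at a TSS in both treatments, the median gene had 3 enhancers in a window drawn in the same way, and 1 with H3K4me1 in GSK cells only. At least 5 of the latter were found at 99 genes (0.762%), Eomes among them. Tbx21, with 1, was at the median. Of the 301 genes with 9 enhancers, as at Eomes, 5 had at least 5 of that kind. The 5 at Eomes had no H3K4me2 peak, so the GSK H3K4me1 list alone placed them in the enhancer set. The same list thus also raised the total of 9, and these counts describe the lists without testing Eomes. Neighbouring genes share enhancers, so these counts are not independent of each other, and longer genes have longer windows.

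**Figure D4:**
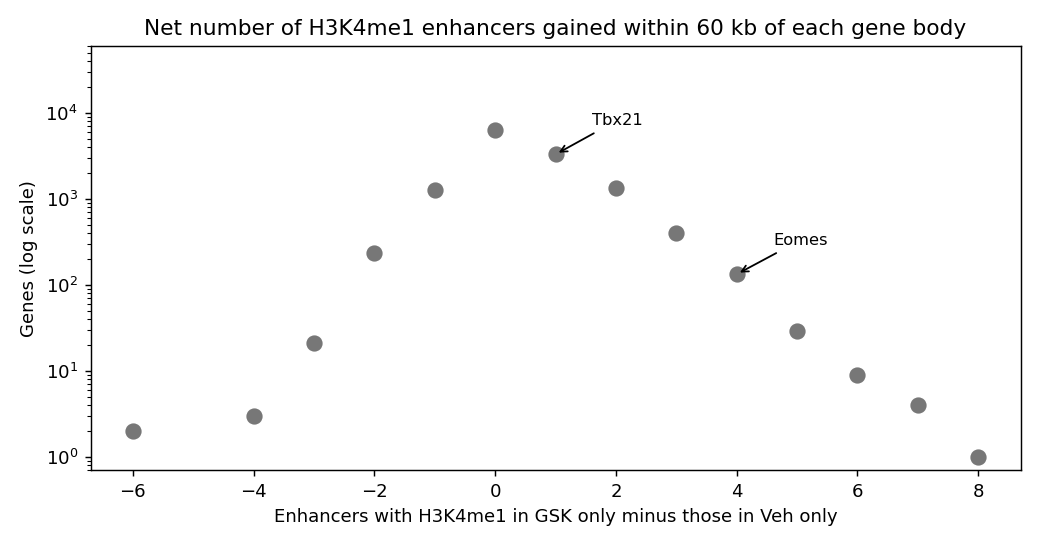
Number of genes (log scale) by the number of enhancers with H3K4me1 in GSK only minus those in Veh only within 60 kb of the gene body, over 12997 genes with H3K4me3 in both treatments. Most genes sit at 0 (6258) or 1 (3291, Tbx21 among them), and Eomes is 1 of 133 genes at 4.

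H3K4me2 went from 4 Veh peaks to none around Eomes and from 4 to 3 around Tbx21, against 44.7% of Veh H3K4me2 peaks without a GSK peak and 10.8% of GSK peaks without a Veh peak in the whole lists. Of the 12997 genes with H3K4me3 at a TSS in both treatments, 14.7% had no GSK H3K4me2 peak in their window. The Eomes peaks lay at the promoter, 24.4 kb upstream (fold 3.98), 10.5 kb downstream (3.61) and at the Golga4 promoter (5.13). Their −log10 p ran from 5.84 to 9.85. Of the Veh H3K4me2 peaks with −log10 p of at least 9.85, 17.0% had no GSK peak, and the Golga4 peak was at that level and the other 3 were below it. Around Tbx21 the peak at the Lrrc46 and Mrpl10 promoter was listed in Veh cells only, with a −log10 p of 6.74, and those at Tbx21, Osbpl7 and Tbkbp1 were shared.

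H3K27ac was listed in Veh cells only throughout, with 4 peaks around Tbx21 and 2 around Eomes, where 64.8% of Veh H3K27ac peaks had no GSK peak and 4.98% of GSK peaks no Veh peak. A window without any GSK H3K27ac peak was found at 54.9% of the 12997 genes with H3K4me3 at a TSS in both treatments. The Tbx21 peaks lay at the Lrrc46 and Mrpl10 promoter, 12 kb upstream and at both sites in Tbkbp1, with −log10 p from 6.03 to 10.4. Among Veh peaks with −log10 p of at least 10.4, 38.8% had no GSK peak. The second Eomes peak lay 53.5 kb upstream, enriched 3.51 times at −log10 p of 7.37. The study states fewer reads for GSK than for Veh in both H3K27ac and H3K4me2, and depth and treatment cannot be told apart in these absences.

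H3K4me3 had 5 peaks around Tbx21 and 4 around Eomes in each treatment, all shared, where 2.66% of Veh and 8.94% of GSK peaks had no counterpart. Besides the promoters of Tbx21 and Eomes and those of Lrrc46 and Mrpl10, Osbpl7, Tbkbp1 and Golga4, 3 of these peaks lay away from curated TSSs. One was the element 12.1 kb upstream of Tbx21, and the others were 24.5 kb upstream of Eomes (folds 7.18 and 6.18) and 10.6 kb downstream of its TSS (4.46 and 3.91).

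The element upstream of Tbx21, from 97126969 to 97127839 in the Veh H3K4me3 list, was intergenic and held no gene of RefSeq or GENCODE M21. H3K4me3 was enriched 5.73 times in Veh and 6.49 times in GSK cells. H3K27ac (fold 3.30) and Pol II (4.54, −log10 p of 7.62) were listed there in Veh cells only, and LSD1 (3.35, −log10 p of 7.17) in GSK cells only. H3K4me1 flanked it on the far side in both, at folds of 2.09 and 2.07. Of the 4287 Veh H3K4me3 peaks away from TSSs, 11.5% had Pol II in Veh cells only and 11.8% had LSD1 in GSK cells only. Pol II was listed in Veh cells only both at this element and at the Tbx21 promoter. LSD1 differed: at the element it was listed in GSK cells only, at the 11.2 percentile of fold. At the promoter it was listed in both treatments, with the higher fold in GSK cells. The share of peaks with both patterns together was not counted.

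The H3K4me3 block 10.6 kb downstream of the Eomes TSS lay at the start of Gm33460, a noncoding gene that GENCODE M21 places on the minus strand from 118485559 to 118489099. Its H3K4me3 peak was 1781 bp long in Veh cells and 2669 bp in GSK cells. LSD1 was listed in both treatments, H3K4me1 at one flank in both (2.88 and 2.82), H3K4me2 in Veh cells only, and H3K27ac and Pol II in neither. This was the only distal Eomes element with LSD1 in both treatments.

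Pol II gave 5 peaks in Veh cells and 2 in GSK cells around Tbx21, and 2 and 1 around Eomes, where 60.9% of Veh and 60.4% of GSK Pol II peaks had no counterpart. Both GSK peaks of the Tbx21 window lay at other genes. At the Lrrc46 and Mrpl10 promoter the fold was 10.1 (Veh) and 7.51 (GSK), and at Osbpl7 it was 3.77 and 3.75. The 3 Veh-only Pol II peaks were thus those at Tbx21 itself, at the element 12 kb upstream and in the Tbkbp1 intron, with −log10 p from 4.63 to 9.90.

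When the 12 lists were merged, each window held 15 separate elements. Around Tbx21, 6 carried more antibodies in Veh cells, 2 more in GSK cells and 7 equal numbers. Around Eomes the figures were 7, 6 and 2. No Tbx21 element was listed in Veh cells only and 1 in GSK cells only, the H3K4me1 peak 3.60 kb upstream of the TSS, whereas 2 Eomes elements were listed in Veh cells only and 5 in GSK cells only. Over all 72880 merged elements, 19.5% were listed in Veh cells only and 26.0% in GSK cells only. The 5 GSK-only elements of Eomes were single H3K4me1 peaks of the low significance given above. This contrast between the genes was not tested.

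Of 15 further T-box genes examined, 8 had no peak of any antibody within 1 kb of a TSS, as had 40.9% of all genes. Mga, which encodes a MAX-binding T-box protein, was the only one with Pol II, and it had LSD1 and H3K4me3 in both treatments as well, at LSD1 folds of 7.63 and 8.41. Tbx1 and Tbx15 had H3K4me3 in both treatments, with LSD1 in Veh cells only and in GSK cells only, and Tbx2 had both in GSK cells only. Tbx18 and Tbr1 had LSD1 in both without H3K4me3, and Tbx3 had only H3K4me1, in GSK cells. LSD1 in both treatments was found at 3 of the 15 (20.0%), against 31.9% of all genes.

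Of 14 genes known as targets of T-bet or eomesodermin, 7 had LSD1 in both treatments and 5 had Pol II in both, against 31.9% and 22.0% of all genes. Fasl, the death ligand of cytotoxic cells, had LSD1 in GSK cells only (fold 4.07), Il12rb2, a subunit of the IL-12 receptor, had it in Veh cells only (3.64), and Il18r1, a subunit of the IL-18 receptor, had Pol II in GSK cells only (3.40). No target had Pol II in Veh cells only, the pattern of Tbx21, which 7.33% of all genes had.

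Of 13 upstream regulators, 3 had Pol II in Veh cells only, as Tbx21 had. They were Stat5a (fold 4.96) and Stat5b (3.83), which encode the transducers of IL-2 signals, and Runx1 (3.47), which encodes a Runt factor. Pol II was listed in GSK cells only at Foxo1 (5.08), as at 2.94% of all genes. LSD1 was listed in GSK cells only at Gata3 (4.0), Irf4 (4.17) and Tcf7 (4.01), and in Veh cells only at Batf (3.44), against 9.74% and 4.44% of all genes. All 13 had H3K4me3 in both treatments, as had 9 of the targets and 49.6% of all genes. The shares over all genes set beside the targets and regulators are thus not matched for H3K4me3, and no excess can be read from them.

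Set against all 12997 genes with H3K4me3 in both treatments, the promoters of Tbx21 and Eomes were closer to each other than to the median gene. Likeness was the mean absolute difference of 12 promoter percentiles of fold, with 0 where no peak was listed. It was 19.7 between Tbx21 and Eomes, where the median gene differed by 34.0 from Tbx21 and by 34.6 from Eomes. Eomes was 502 in the order of likeness to Tbx21, and Tbx21 was 1122 in that to Eomes. The genes most like Tbx21 were Nsmaf (5.24), Nr2c2 (7.54), Arfgef1 (8.22), Sgpp1 (9.79) and Btf3l4 (10.1), and those most like Eomes were H3c1 (5.59), Mob3a (5.72), H4c1 (5.95), Wee1 (6.04) and Mir1904 (6.15).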

How the data were processed

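Peak lists of 12 ChIP libraries were analysed, 1 per antibody and treatment. The authors aligned reads to mm10 (Bowtie2) and ran MACS2 on each library separately, keeping peaks under a p-value of 0.001. The deposited lists give for each peak a fold enrichment (a ratio), a −log10 p, a −log10 q and a score derived from these. The lists hold no read counts, so no value was scaled for depth here. The study's read totals differ between libraries, which could limit which weak peaks were called. The study also states that reads were randomly picked to equal numbers when signals were compared. Whether the deposited peaks were called on such reads cannot be told from the lists. Narrow peaks with summits were deposited for LSD1 and Pol II, and the histone lists are broad regions in which −log10 q began just above 3, a stricter level than that of the narrow lists. edgeR is named in the submitters' processing notes and was not used here.

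TSSs were those of curated RefSeq transcripts (GRCm38.p6, 31603 distinct positions). Peaks were shared when they overlapped by at least 1 bp. A percentile is the share of a list's peaks at or below a value. The scripts (Python 3.11.15, pysam 0.24.0, statsmodels 0.14.6) were tested on simulated peaks. Members, gene lists and motifs were chosen with earlier results of these data known. Named genes were Tbx21 and Eomes, curated RefSeq neighbours in their windows, T-box genes with any promoter peak, listed targets and regulators with LSD1 or Pol II at the promoter in 1 treatment only (at most 8 a list, in order of −log10 p), and the 5 nearest genes by promoter percentiles. Some genes of the marker and regulator lists are not reported here and were left out of their counts.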

Additional observations from a re-analysis of the deposited data

How the results depend on the processing

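No paired analysis was possible because each antibody and treatment has 1 peak list. Of 58 alternative values for 13 results, 39 were classed as the same, 16 as moved and 3 as changed in direction. The first class is wide and does not mean close: it holds the shift of the Eomes H3K4me1 covered length ratio from 1.66 to 1.17. The H3K4me1 covered length ratio ran from 1.17 to 1.66 around Eomes and from 1.20 to 1.41 around Tbx21. LSD1 retention stayed at 80.0% to 100% around Tbx21 and 44.4% to 80.0% around Eomes. The net number of H3K4me1 enhancers gained around Eomes went from 4 to 1 with lists of equal length and to 0 with −log10 p (narrow) or −log10 q (broad) of at least 5, and that around Tbx21 from 1 to 3 with 100 kb on each side and to 0 with lists of equal length. The H3K4me2 covered length ratio of Tbx21, 0.703, became 2.64 with 30 kb on each side, where the promoter peak alone remains, and 1.05 with lists of equal length. The change in the LSD1 promoter percentile of Tbx21, 27.4, was 16.3 when ranked by −log10 p, 29.8 with lists of equal length and 37.4 with the stricter threshold, and that of Eomes, -10.3, was -1.61, -8.86 and -12.4. For H3K4me3 the change at Tbx21, 4.64, was 0.577, 1.55 and 3.07 under these settings, and at Eomes, 0.160, it was 4.39 when ranked by −log10 p and -0.0254 with lists of equal length. The Pol II change at Eomes, 10.2, was 13.1 when ranked by −log10 p and 1.56 with the stricter threshold. It compares the strongest promoter peak of each list, and these Veh and GSK Pol II peaks do not overlap. Tbx21 gave no Pol II change, since no GSK peak was listed. The causes of these shifts were not tested. With no replicates and no read depth in the files, an absent peak may lie just under a cutoff.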
